A study of Mus musculus with 18 samples.

Results

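Colon epithelial cells are described here, the cells of a mouse colon preparation that carried keratin and epithelial adhesion transcripts and no transcript of 3 genes of T, B and other blood cells. A cell was a member when mitochondrial genes gave under 20% of its unique molecular identifiers (UMIs, 1 per captured mRNA molecule), when it had at least 3 UMIs of Epcam and at least 1 of Krt8, and when it had none of Ptprc, Cd3e and Cd79a. The rule found 2037 members among 21286 colon cells that passed the mitochondrial limit (9.57%). Libraries 1, 2 and 3 gave 933, 432 and 672 of them. The members were thus selected on the measured counts of those 5 genes and of mitochondrial genes, which are given as a description only. Of 3281 cells with enough Epcam and Krt8 UMIs, 1244 were left out for an immune transcript, 934 with Ptprc, 418 with Cd3e and 875 with Cd79a (a cell can count under several). Just inside the Epcam limit lay 164 cells with 3 UMIs, at a median of 2929.5 UMIs in all, and just outside it 206 cells with 2 UMIs, at a median of 1550.5.

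The study compared mice that lack ST8Sia6, a sialyltransferase that adds alpha-2,8-linked sialic acid to glycans (KO), with heterozygous (het) and wild-type (WT) mice. Cells of the small bowel epithelium, the small bowel lamina propria and the colon, where both layers were combined, were separated on Percoll, enriched for the leukocyte marker CD45 with beads, and sequenced from the 5′ end of their transcripts with antibody hashtags that mark the genotype. Each run held 1 KO, 1 het and 2 WT mice, and there were 3 runs, so a KO or het value of 1 library is from 1 mouse and a WT value from 2 mice pooled. The epithelial cells are those that came through an immune enrichment, and nothing here measures how many the colon held.

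Cells of a library fell into 3 barcode endings, and each ending took the genotype of the hashtag with the highest median count in it. Libraries are numbered by the order of their endings. The hashtag of that genotype was also the highest in 86.2% (KO, library 2) to 100% of the members of each of the 9 sums of genotype and library. By a stricter rule, at least 80% of a cell's hashtag counts, most het but few KO members passed, namely 9.46%, 11.5% and 11.3% of KO, 64.0%, 92.9% and 87.0% of het and 18.7%, 37.3% and 17.2% of WT members in libraries 1, 2 and 3. Results by hashtag share below rest on those cells. The sums held 370, 261 and 266 KO cells, 125, 112 and 46 het cells, and 438, 59 and 360 WT cells in libraries 1, 2 and 3, with 848367 to 7968647 UMIs each. Colon barcodes were never shared by endings of 1 library, and 1 barcode was found among members of different libraries. In WT library 1, 66 members with a median of 792.5 UMIs formed a cluster of their own led by immunoglobulin variable genes, so gene tests were also run over members with at least 3000 UMIs, an alternative chosen after the data were seen. It kept all 7, 5 and 6 calls of the 3 genotype comparisons given below. St8sia6 gave 6 UMIs in all members, 3 in KO, 1 in het and 2 in WT cells, too few to check the genotype labels. In colon cells without Epcam it stood at 9.63 to 10.8 CPM in KO, 6.66 to 11.2 in het and 15.1 to 18.4 in WT. KO was thus below WT, was not below het and was not near 0. Which part of the gene the KO lacks, and whether the counted reads fall in it, was not tested, so KO, het and WT are the names of the hashtags.

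The colon surface is lined by columnar colonocytes that take up salt, water and short-chain fatty acids, and by goblet cells that secrete the Muc2 mucus. Both descend from Lgr5-expressing stem cells at the crypt base through dividing progenitors, together with rarer hormone-secreting enteroendocrine cells and chemosensory tuft cells. Sialic acids cap many of the O-glycans of colonic mucins.

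The members carried the transcripts of colon epithelium. Besides the 2 genes of the rule, a UMI of Pigr, the receptor that carries IgA across the epithelium, was found in 97.3% of members, of Vil1, the microvillus protein villin, in 82.8%, and of Cdh17, an intestinal cadherin, in 75.1%. The colonic carbonic anhydrase Car1 was found in 53.2%, the water channel Aqp4 in 50.5% and the secreted protease inhibitor homologue Wfdc2 in 56.5%. These 3 served as colon markers, and each was missing from a large part of the members.

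Members were deeper than the other cells of the preparation, with a median of 16592 UMIs and 4408 genes against 4495 UMIs and 1868 genes in the other colon cells. Shares were therefore also taken with each cell thinned to 3000 UMIs, which left 1865 members, 2526 cells with Cd3e and 4795 with Cd79a, both without Epcam. At that depth Aqp4 was found in 27.1% of members against 2.02% of Cd3e cells and 2.29% of Cd79a cells. Abundant epithelial transcripts were common in the immune cells as well: Muc2 was found in 35.9% of members, 16.7% of Cd3e cells and 18.6% of Cd79a cells, and Car1 in 29.2%, 14.3% and 16.4%. A single Muc2 or Car1 UMI is thus also found in cells that should lack it. By summed counts, scaled to a common library total (CPM), Muc2 stood at 3417 in members against 66.8 and 71.5 in the immune cells, and Car1 at 1645 against 55.6 and 58.8.

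Transcripts of T and B cells were low in the members, which the rule chose without Ptprc, Cd3e and Cd79a. The 17 T cell markers summed to 12.6 to 20.6 CPM over the KO libraries, 10.9 to 23.6 in het and 12.9 to 21.8 in WT, with 1 of the 17 at 0, against 26491 in Cd3e cells. The 12 B cell markers summed to 7.88 to 12.1, 5.84 to 8.25 and 10.0 to 10.2 CPM, against 8278 in Cd79a cells. Cd3e and Cd79a themselves are at 0 by the rule. Plasma cell markers were higher, 541 to 714 CPM in KO, 508 to 646 in het and 624 to 816 in WT, a list of 10 that holds Xbp1 and Sdc1, which epithelium also expresses. The 10 fibroblast markers summed to 3.50 to 64.1 CPM in KO, 2.55 to 3.54 in het and 1.36 to 42.6 in WT. The 15 myeloid markers summed to 107 to 147 CPM in KO, 118 to 159 in het and 110 to 177 in WT. For 9 smooth muscle and glia markers the sums were 3.02 to 6.03, 1.09 to 2.93 and 1.36 to 39.2 CPM.

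Gates on 3 genes then described the states. A goblet gate (at least 5 Muc2 UMIs) held 581 members, or 28.5%. A crypt gate (at least 1 Lgr5 UMI and under 5 of Muc2) held 139, or 6.82%. A colonocyte gate (at least 1 Car1 UMI, no Lgr5 and under 5 of Muc2) held 784, or 38.5%, and 533 members (26.2%) met none of the 3. The Muc2 limit fell in a sparse range, with 54 cells at 3 to 4 UMIs, 24 at 5 to 9 and 300 at 100 or more. Lgr5 was near the limit of detection: the crypt cells had a median of 28113 UMIs against 13080 in the goblet gate and 18757 in the colonocyte gate.

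Genes that the gates did not use separated the same cells, which is a description, since the cells were chosen within 1 data set. Summed over goblet gate cells, Zg16, a lectin-like mucus protein that binds Gram-positive bacteria, stood at 9076 CPM against 43.6 in the colonocyte gate. Fcgbp, which is bound to Muc2 in the mucus, stood at 3663 against 18.6, and the trefoil peptide Tff3 at 3609 against 25.0. Of the goblet genes examined that the gate did not use, Spink4 (12485 CPM) was the highest, and Retnlb, a bactericidal goblet product, reached 2155. None of these 5 genes exceeded 179.7 CPM in another gate.

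In the colonocyte gate Car4, the membrane carbonic anhydrase of surface cells, stood at 354 CPM against 12.6 in the crypt gate and 38.3 in the goblet gate. The chloride-bicarbonate exchanger Slc26a3 stood at 121 against 2.73 and 15.3, and the aquaporin Aqp8 at 138 against 9.01 and 7.72. These are genes of the absorptive upper crypt and surface. Reg3b, a secreted antimicrobial lectin, was also highest there among the 4 gates, at 9335 CPM against 2314 in goblet and 2320 in crypt gate cells.

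The crypt gate held the stem cell genes. Ascl2, a transcription factor of intestinal stem cells, stood at 81.3 CPM against 8.10 in goblet and 7.95 in colonocyte gate cells. Smoc2 stood at 180.4 against 17.5 and 11.9, and the sodium-potassium-chloride cotransporter Slc12a2 at 580.1 against 253 and 103. Mki67, a mark of dividing cells, stood at 249.7 CPM in the crypt gate and 239.8 in the members that met no gate, against 94.4 in goblet and 119 in colonocyte gate cells.

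Unsupervised clustering of the members gave 16 clusters, named only where at least 3 markers listed for a class were among the leading 30 genes. Colonocyte-like clusters held 598 members (29.4%), goblet-like 504 (24.7%), proliferation-like 218 (10.7%) and crypt stem-like 98 (4.81%). An enteroendocrine-like cluster of 39 cells was led by the hormone gene Pyy (29686 CPM) and by Chga (7994 CPM), a granule protein, and a tuft-like cluster of 15 cells by Dclk1 (3484 CPM) and Trpm5. The remaining 565 members (27.7%) lay in clusters left unnamed.

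Each of the larger classes held distinct forms. Among the goblet-like clusters, one of 227 cells carried 4358 CPM of Retnlb and 20146 of Muc2, one of 184 cells carried 52268 CPM of Zg16, 20702 of Fcgbp and 8718 of Clca1, and one of 93 cells carried Reg4 (1547 CPM) and Atoh1 (457 CPM). Reg4 marks the deep crypt secretory cells that lie between colonic stem cells, and Atoh1 is the transcription factor that sets the secretory fate. Among the colonocyte-like clusters, one of 204 cells carried 2929 CPM of Car4 and 1067 of Aqp8, and also had a median mitochondrial share of 15.3%. Another of 197 cells carried 23984 CPM of Reg3b and 8621 of Car1 with 26.5 of Hoxb13, while a second of 197 carried 393 CPM of Hoxb13, a homeobox gene of the distal colon, and 227 of Car1.

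Some unnamed clusters held transcripts that colon epithelium is not known for. One of 219 cells was led by Dcn, Igfbp6, Vim and Krt5, with 357 CPM of the matrix gene Dcn and 141 of the squamous keratin Krt5, a median of 5649 UMIs and a median mitochondrial share of 9.62%. All 9 sums gave cells to it, while the fibroblast markers of the members ranged from 1.36 to 64.1 CPM between sums. Unnamed clusters of 66 and 8 cells were led by immunoglobulin variable genes, at medians of 792.5 and 745.5 UMIs. A different unnamed cluster, of 157 cells at a median of 33272 UMIs, was led by genes that include a colon one. These were Trf, Adh1 and Nox1, a superoxide-producing oxidase of the colon crypt. What these cells were was not tested.

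**Figure D1:**
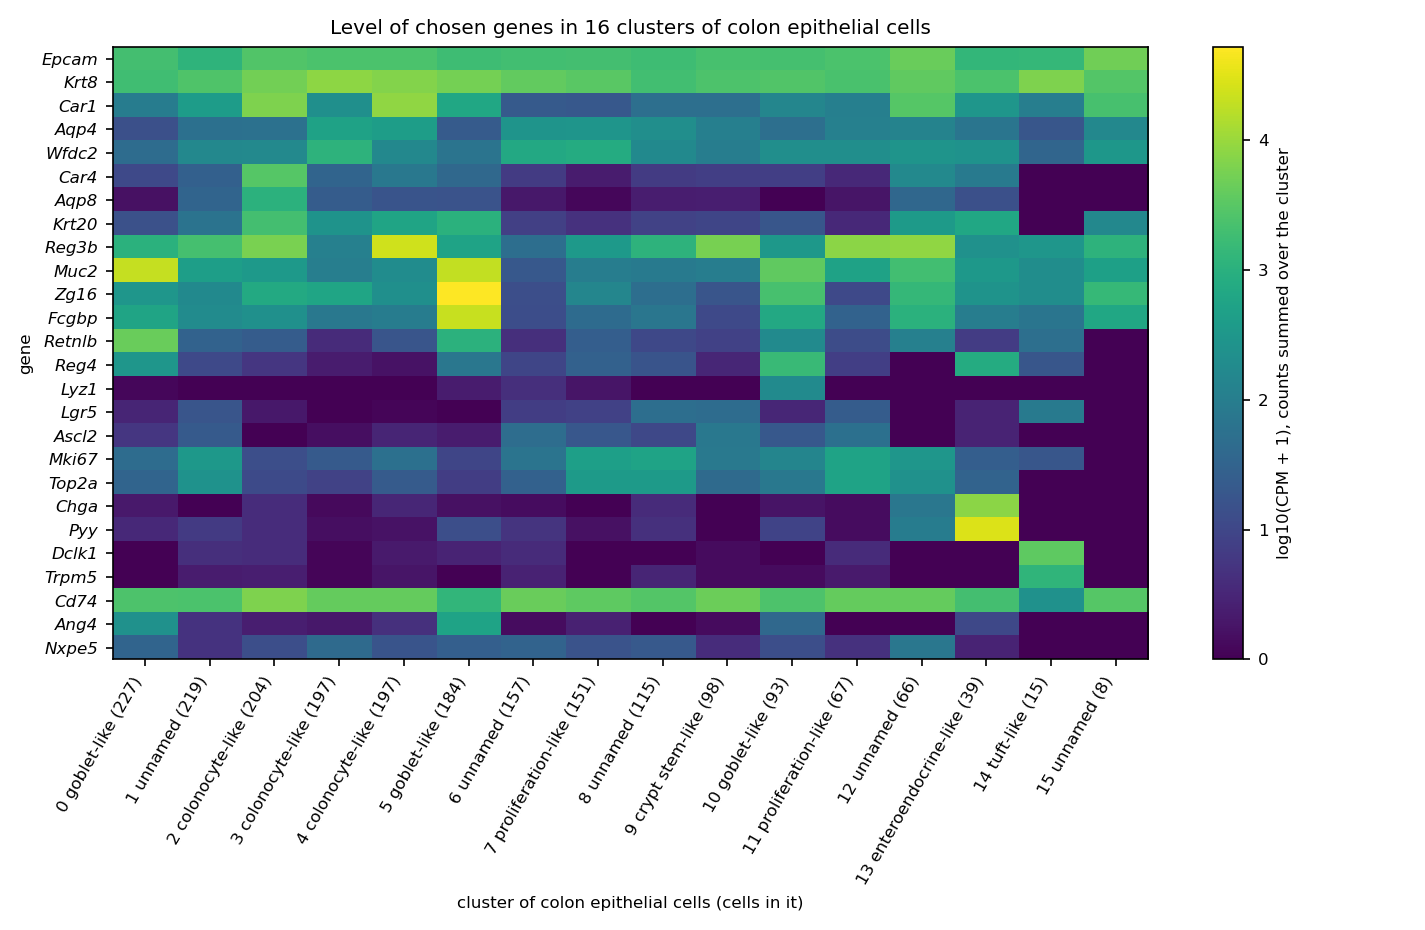
Level of chosen genes (rows) in each of the 16 clusters of colon epithelial cells (columns, with the number of cells in brackets), as log10 of CPM + 1 from counts summed over the cluster. Muc2 is brightest in goblet-like clusters 0 and 5, Zg16 and Fcgbp in cluster 5, Car4 and Aqp8 in colonocyte-like cluster 2, Chga and Pyy in the 39 enteroendocrine-like cells and Dclk1 and Trpm5 in the 15 tuft-like cells.

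The share of epithelial cells varied widely between libraries of a genotype. Members made up 17.0%, 9.89% and 11.0% of KO colon cells in libraries 1, 2 and 3, 8.09%, 9.13% and 3.42% of het cells, and 12.5%, 1.52% and 14.1% of WT cells. WT library 2 was the lowest of all 9 while WT library 3 was the second highest, so the genotypes overlapped except that each KO library lay above each het library. The means were 12.6% ± 3.85 for KO, 6.88% ± 3.04 for het and 9.39% ± 6.86 for WT (mean and SD of 3 libraries). KO exceeded het by 5.76 percentage points, with p = 0.1 in a two-sided exact permutation test, the smallest p that 3 against 3 libraries allow, and 0.3 after Benjamini-Hochberg adjustment over 3 tests. With genotype by hashtag share the difference was -0.857 points, the opposite sign. KO minus WT was 3.25 points and het minus WT was -2.51 points, each with an exact permutation p of 0.6, also after adjustment.

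Gate shares were compared in cells thinned to 3000 UMIs, between 45 and 354 per sum. Goblet gate cells made up 27.4% ± 3.36 (SD, n = 3 libraries) of KO, 19.6% ± 5.42 of het and 24.0% ± 3.98 of WT members, and 31.9%, 26.9% and 26.0% without thinning. When thinned, KO lay above WT in 3 libraries, het above WT in 0 and KO above het in 3. Without thinning these counts were 3, 2 and 2. The permutation tests of shares did not pair libraries. Colonocyte gate cells made up 30.5%, 23.6% and 22.0% of KO members, 17.9%, 26.7% and 31.1% of het and 20.3%, 10.7% and 21.2% of WT members. All KO libraries thus lay above all WT libraries, by 7.94 points on average, with an exact permutation p of 0.1 and an adjusted p of 0.6 over the 9 tests of gate shares. Without thinning that difference was -0.658 points, the opposite sign. Crypt gate shares were 1.87%, 2.08% and 2.02% on average. None of the 9 tests could pass a limit of 0.05, since 0.1 is the smallest p of the exact permutation test.

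**Figure D2:**
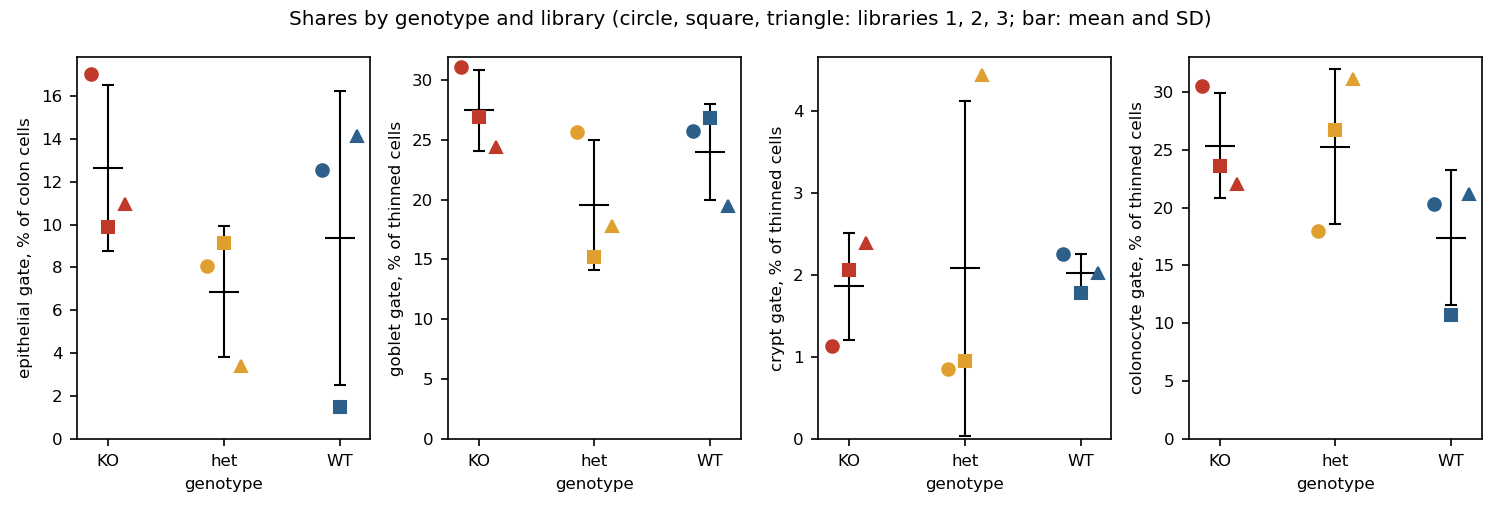
Share of epithelial members among colon cells, and of goblet, crypt and colonocyte gate cells among members thinned to 3000 UMIs, in percent, by genotype. Points are libraries 1 (circle), 2 (square) and 3 (triangle), and bars give the mean and SD of 3 libraries; WT library 2 holds the lowest epithelial share, 1.52%.

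Gene levels were compared over the 9 sums, with genotype and library in 1 model (edgeR quasi-likelihood test, 12212 genes tested) and values as CPM scaled by trimmed mean of M values (TMM). Against WT, 7 genes were called in KO cells at an adjusted p under 0.05, which is 0.0573% of the genes tested, 4 of them higher (0.0328%) and 3 lower (0.0246%). In het cells 5 genes were called against WT (0.0409%), 1 higher (0.00819%) and 4 lower (0.0328%). KO and het differed in 6 genes (0.0491%), 5 higher (0.0409%) and 1 lower (0.00819%) in KO. The 3 comparisons share their KO, het or WT sums and are not independent. DESeq2 called 14, 16 and 15 genes, and the fit without the library block 4, 2 and 3. The numbers without 1 library are 2 to 37 for KO against WT, 1 to 20 for het against WT and 0 to 15 for KO against het, so the counts turn on single libraries.

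Ang4, an RNase of the angiogenin family that is secreted by Paneth and goblet cells and kills bacteria, was lower in KO and in het than in WT. Its level was 35.4, 61.6 and 240.4 TMM-scaled CPM in the WT libraries, 1.20, 3.85 and 8.88 in KO and 2.26, 3.65 and 3.54 in het. The lowest WT library stood above all 6 others. The log2 fold change was -4.55 ± 0.22 SE for KO against WT (edgeR adjusted p = 7.86e-07) and -4.64 ± 0.29 SE for het against WT (edgeR adjusted p = 1.32e-05). The KO call held under the 13 alternatives that could test it, and the het call was lost without the library block (edgeR adjusted p = 0.167).

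Ang4 came from few cells. In WT it gave 281 UMIs in 22 cells, 89 in 5 cells and 1676 in 33 cells of libraries 1, 2 and 3, with up to 498 in 1 cell. KO libraries gave 9, 20 and 53 UMIs in 5, 6 and 8 cells, and het libraries 6, 9 and 3 in 3, 3 and 1. Within the goblet gate the level was 143, 292 and 1037 CPM in WT, 2.22, 12.3 and 32.5 in KO and 6.50, 18.0 and 12.1 in het, so the difference was also present among goblet gate cells alone. In small bowel epithelial cells taken by the same rule Ang4 ranged from 423 to 694 CPM in WT, 0 to 156 in KO and 7.49 to 20.1 in het, over 17 to 24 KO or het cells per library.

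Nxpe5, a gene of the neurexophilin and PC-esterase domain family, was nearly absent from KO and het epithelial members. It stood at 62.7, 74.7 and 35.9 TMM-scaled CPM in WT, 1.86, 0 and 0.670 in KO and 0 in all 3 het libraries. A UMI was found in 163, 29 and 115 WT cells, or 307 of 857 (35.8%), in 6 of 897 KO cells (0.669%) and in 0 of 283 het cells, which allows a share of up to 1.06% of cells with a UMI and does not limit the share of cells that express the gene. The log2 fold change of KO against WT was -5.89 ± 0.41 SE (edgeR adjusted p = 1.32e-04). WT was at least 104-fold higher than a floor of 3 UMIs over the het group (edgeR adjusted p = 0.00118).

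Whereas Ang4 had 2119 UMIs in the goblet gate against 2, 14 and 11 in the crypt gate, the colonocyte gate and the other members, Nxpe5 was spread over all 4 gates, at 23.1 CPM in goblet, 9.01 in crypt, 22.1 in colonocyte and 22.3 in other members. In small bowel epithelial cells it was at 0 in every sum except for 1 UMI in WT library 2. In colon cells without Epcam it was not lower in KO or het, at 0.616 to 5.39 CPM in KO, 2.46 to 6.38 in het and 0.135 to 3.41 in WT. The KO call did not hold without library 3 (edgeR adjusted p = 0.0785) and under DESeq2 (adjusted p = 0.0692), and the het call without library 3 (edgeR adjusted p = 0.141), with the same sign each time.

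Gm42031, a long non-coding RNA gene, rose in KO cells. Its level was 172, 173 and 109.6 TMM-scaled CPM in KO, 50.8, 45.8 and 29.5 in het and 35.5, 51.9 and 36.7 in WT. Every KO library lay above every het and WT library, which overlapped each other. The log2 fold change was 1.88 ± 0.15 SE against WT (edgeR adjusted p = 1.32e-04) and 1.82 ± 0.16 SE against het (edgeR adjusted p = 8.76e-04). Colon cells without Epcam had 57.7 to 156 CPM in KO, 36.6 to 45.6 in het and 41.5 to 61.5 in WT, where KO and WT ranges overlapped at their ends. Against het the call did not hold without library 3 (edgeR adjusted p = 0.109), and within the goblet gate alone neither call held (edgeR adjusted p = 0.409 against WT). In small bowel epithelial cells the ranges were 109.7 to 322, 71.3 to 101 and 37.2 to 70.0 CPM.

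These 3 genes had the smallest edgeR adjusted p for KO against WT, and the bases before their starts are shown. They are the 120 bases before a transcript start in RefSeq (build GRCm38.p6), read along the gene's strand. The Ang4 gene spans chr14:51763892-51773590, and the bases shown are chr14:51773591-51773710 on the minus strand. Nxpe5 spans chr5:138207499-138251876, with chr5:138225784-138225903 shown on the plus strand, before a start inside the annotated span. Gm42031 spans chr8:85125923-85131814, with chr8:85131815-85131934 shown on the minus strand. Capitals mark TTTAT, the core that Cdx factors of the intestine bind, or TATAAA, on either strand.
Ang4: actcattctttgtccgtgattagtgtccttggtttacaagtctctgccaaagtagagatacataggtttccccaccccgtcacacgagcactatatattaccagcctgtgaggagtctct
Nxpe5: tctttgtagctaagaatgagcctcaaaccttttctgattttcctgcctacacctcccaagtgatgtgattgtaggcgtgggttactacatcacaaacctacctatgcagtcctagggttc
Gm42031: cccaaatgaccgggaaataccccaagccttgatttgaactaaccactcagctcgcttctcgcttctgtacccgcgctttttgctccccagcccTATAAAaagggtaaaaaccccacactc
Only Gm42031 held a match, a TATAAA that contains the reverse complement of TTTAT. Over 32851 starts in the table, 6.34% held TATAAA and 20.2% held TTTAT in the same window, so these matches are common.

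The other genes called between KO and WT were less certain. Gm46620 stood at 26.4, 36.6 and 30.2 CPM in KO, 8.29, 11.8 and 8.27 in het and 8.06, 8.30 and 6.60 in WT (log2 fold change against WT 1.97 ± 0.18 SE, edgeR adjusted p = 2.48e-04, and 0.118 without library 3). Colon cells without Epcam gave 23.2 to 29.7 CPM in KO against 9.83 to 14.8 in het and 8.86 to 13.3 in WT. Gm49980 stood at 61.6, 53.3 and 66.3 in KO and 20.0, 25.6 and 37.1 in WT (edgeR adjusted p = 0.0250, lost under 7 of 15 alternatives, among them without library 1 or 3 and by hashtag share at an adjusted p of 0.671). Neither has an annotated position here. Both were higher in each KO library than in each WT library. Gm49980 was not called between KO and het. In small bowel epithelial cells it overlapped between them, at 80.5 to 98.6 CPM in KO and 64.2 to 112 in het, against 24.6 to 49.7 in WT. Colon cells without Epcam gave 55.3 to 67.5 CPM of it in KO, 32.3 to 49.1 in het and 26.2 to 49.2 in WT.

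Hist1h2ae, which encodes a histone H2A made during DNA replication, stood at 131, 116 and 148 CPM in KO, 119, 82.3 and 118 in het and 87.1, 52.6 and 67.3 in WT. The KO libraries lay above all WT libraries and overlapped het. The log2 fold change against WT was 0.94 ± 0.13 SE (edgeR adjusted p = 0.0189, and 0.119 and 0.753 without library 2 or 3). By hashtag share it was 0.50 (edgeR adjusted p = 0.704), and the call was lost under 7 of 15 alternatives. Within the gates it was highest in crypt (195 CPM) and other members (149 CPM), the gates with most Mki67.

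Gm10260 was called lower in KO on 1 library. It stood at 769 CPM in WT library 2, and at 1.01 and 1.58 in WT libraries 1 and 3, against 0.930, 3.08 and 0.503 in KO. WT library 2 has 59 members. Its colon cells without Epcam held the gene as well, at 835 CPM against 1.64 and 2.25 in those of WT libraries 1 and 3. Without the library block the adjusted p was 0.942 (edgeR), and without library 2 the gene was too low to be tested. Colon het members gave 2, 27 and 1 UMIs in libraries 1, 2 and 3, with 23 of the 27 in 1 cell. In small bowel epithelial cells all 3 WT libraries held it, at 421 to 573 CPM. KO stood at 0 to 2.78 CPM there and het at 0 to 3.75.

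**Figure D3:**
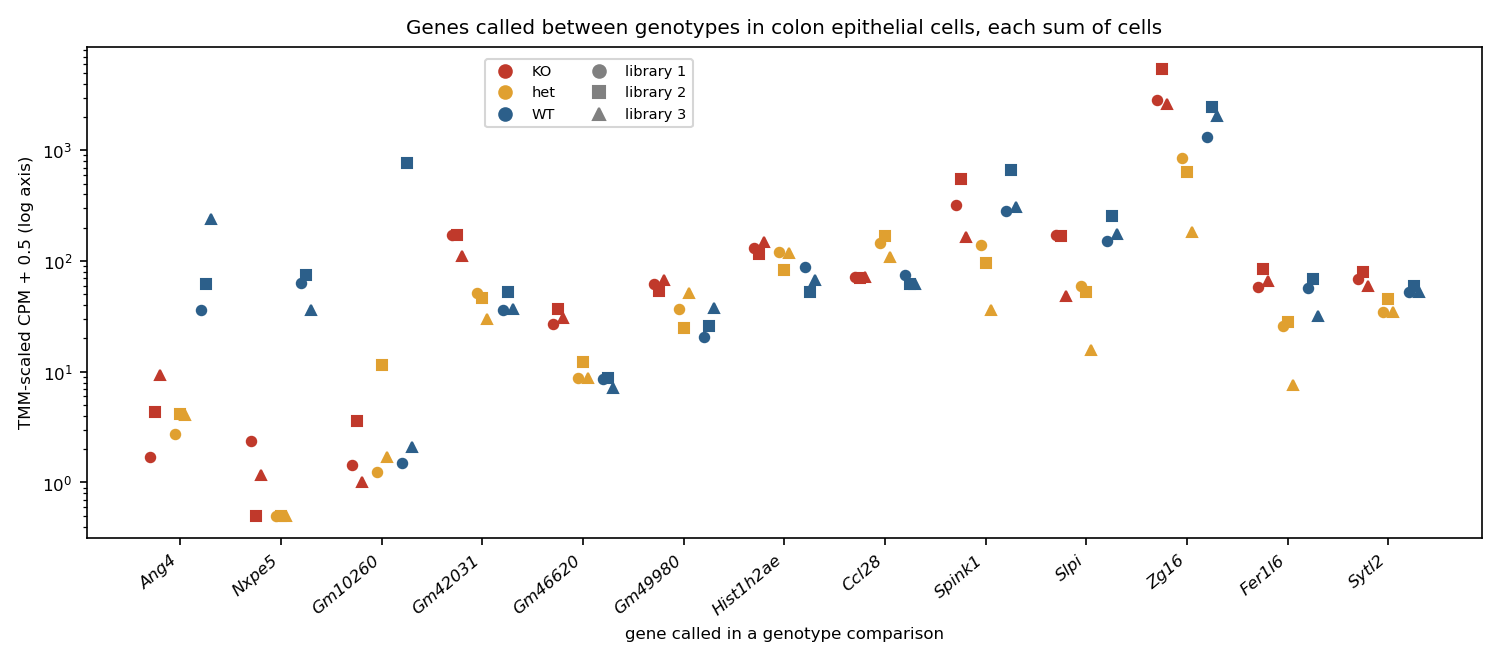
TMM-scaled CPM + 0.5 (log axis) of the 13 genes called in at least 1 genotype comparison, 1 point for each sum of genotype and library. WT points of Ang4 and Nxpe5 lie above all KO and het points, and 1 WT library of Gm10260 stands alone at 769 CPM.

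In het cells Ccl28 (chr13:119623819-119654359), a mucosal chemokine that attracts IgA-secreting plasma cells, rose. It stood at 146, 169 and 109 TMM-scaled CPM in het, 71.6, 70.4 and 70.7 in KO and 74.7, 61.6 and 62.1 in WT, and the het libraries lay above all others. The log2 fold change was 1.08 ± 0.14 SE for het against WT (edgeR adjusted p = 0.0186) and -1.0 ± 0.14 SE for KO against het (edgeR adjusted p = 0.0275). Both calls were lost without library 2 or 3, and the second also without library 1 and by hashtag share (edgeR adjusted p = 0.217). Outside the goblet gate neither held (edgeR adjusted p = 0.131 and 0.209). Small bowel epithelial cells had 45.0 to 103 CPM in het, 32.9 to 55.5 in KO and 21.5 to 29.2 in WT.

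Spink1 and Slpi were called lower in het. Spink1, a trypsin inhibitor, stood at 140.1, 94.9 and 35.4 CPM in het against 284, 667 and 308 in WT and 323, 552 and 166 in KO (het against WT -2.19 ± 0.31 SE, edgeR adjusted p = 0.0325). Slpi, the secretory leukocyte protease inhibitor, stood at 59.5, 51.9 and 15.4 in het, 151, 253 and 177 in WT and 169.8, 168 and 47.6 in KO (het against WT -2.26 ± 0.34 SE, edgeR adjusted p = 0.0458). No het library reached a WT library in either gene. Single cells carried a large part of several sums. The highest cell held 40.0%, 89.6% and 50.4% of Slpi UMIs in WT and 23.4%, 59.4% and 46.2% in het. For Spink1 it held 19.4%, 60.6% and 21.9% in WT and 19.1%, 33.3% and 46.7% in het. Shares of thinned cells with a UMI overlapped, for Slpi at 9.40%, 9.52% and 4.44% in het and 6.50%, 12.5% and 6.09% in WT. For Spink1 they were 18.8%, 16.2% and 8.89% in het and 20.6%, 16.1% and 11.3% in WT. Spink1 and Slpi were goblet gate genes, at 1066 and 409 CPM there against 44.0 and 63.7 in the colonocyte gate. Among members outside the goblet gate the Spink1 difference was 0.19 on the log2 scale and not called, and with genotype taken cell by cell from a hashtag share of at least 80% the Slpi difference was 0.44. Without library 2 or 3 neither call held, and each was lost or reversed under 8 of the 15 alternatives run.

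Zg16, Fer1l6 and Sytl2 were called higher in KO than in het. Zg16 (chr7:127050156-127052675) stood at 2844, 5401 and 2640 TMM-scaled CPM in KO, 856, 632 and 184 in het and 1314, 2484 and 2035 in WT, with each het library below each KO and WT library. The log2 fold change of KO against het was 2.71 ± 0.38 SE (edgeR adjusted p = 0.0275). The highest cell held 12.9%, 33.3% and 34.5% of Zg16 UMIs in KO, 17.2%, 31.9% and 35.3% in het and 32.1%, 76.6% and 37.5% in WT. Shares of thinned cells with a Zg16 UMI overlapped, at 24.8%, 31.0% and 18.4% in KO, 19.7%, 22.9% and 20.0% in het and 22.9%, 17.9% and 15.4% in WT. Thinned Cd3e cells had 18.9%, so these shares cannot tell how many members expressed Zg16. Fer1l6, a ferlin-family gene, stood at 57.9, 83.9 and 65.5 in KO and 25.6, 27.6 and 7.09 in het (1.71 ± 0.24 SE, edgeR adjusted p = 0.0275), and Sytl2, a synaptotagmin-like protein of secretory granules, at 68.0, 79.3 and 58.6 and 34.3, 44.6 and 34.3 (0.87 ± 0.13 SE, edgeR adjusted p = 0.0354). Het libraries had fewer goblet gate cells on average, 19.6% against 27.4% in KO when thinned. Within the goblet gate alone Zg16 still differed by 2.70 on the log2 scale (edgeR adjusted p = 0.00821), a test added after the data were seen. The same test of goblet gate cells called 63 genes for het against WT, with Zg16 at -2.13 (edgeR adjusted p = 0.0154). The het sums of that test held only 45, 21 and 12 cells. Across them Agr2 stood at 10601, 10237 and 2428 CPM, Zg16 at 2412, 3808 and 498 and Muc2 at 10220, 14849 and 10857. All 3 calls over all members were lost without library 2 or 3, and that of Sytl2 also without library 1. Outside the goblet gate the Zg16 difference was 0.08, and by hashtag share it was 2.37 and not called (edgeR adjusted p = 0.0540). The Zg16 call was lost or reversed under 9 of 15 alternatives, that of Sytl2 lost under 10 of 14 and that of Fer1l6 under 6 of 13.

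Few list members were called by genotype, so the lists are described by their counts beside the median log2 fold change over all genes tested, which was -0.00407 for KO against WT and -0.00211 for het against WT. Of 24 goblet genes tested, Ang4 was called lower in KO and in het and no other was called in either. Their medians were 0.14 in KO and -0.25 in het, with 20 and 3 positive. In KO against het, Zg16 and Sytl2 were called higher, 22 were positive and the median was 0.30. None of 29 colonocyte genes was called in KO or het, and their median was 0.23 in KO. Car1 stood at 2666, 1626 and 1878 CPM in KO and 1190, 475 and 1168 in WT with an edgeR adjusted p of 1.00, and ranged over het libraries from 485 to 4269.

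Cell cycle genes leaned upward without a call. Of 21 tested, 20 were positive in KO and 21 in het, with medians of 0.55 and 0.44, and the smallest edgeR adjusted p was 0.144 in KO. Summed, the list stood at 1960 to 2748 CPM in KO, 1822 to 2573 in het and 1428 to 1881 in WT. The 14 crypt stem genes tested had medians of 0.07 in KO and 0.20 in het, and none was called.

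Rare cell types were too uneven to compare. Enteroendocrine genes summed to 112 to 1144 CPM in KO, 9.43 to 408 in het and 64.7 to 3179 in WT, and the 39 enteroendocrine-like cells came as 9, 2 and 2 in KO, 2, 1 and 0 in het and 10, 0 and 13 in WT. The median of 12 tested genes was -1.05 in KO with none called. Tuft genes had a median of -0.33 in KO and -1.56 in het over 7 tested, with none called and 15 tuft-like cells in all.

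Antigen presentation genes leaned downward in KO and in het. In KO, none of 9 tested class II genes was positive and none was called, with a median of -0.33. Cd74, the invariant chain, differed by -0.33 ± 0.12 SE and H2-Aa by -0.49 ± 0.13 SE on the log2 scale (edgeR adjusted p = 0.966 and 0.571). Of 13 class I genes 1 was positive (median -0.26), and of 13 heat shock genes none was positive (median -0.20, smallest edgeR adjusted p 0.144). In het the medians were -0.21, -0.23 and -0.12, with 1, 2 and 2 positive and none called. Both comparisons share the WT sums. None of 29 interferon-stimulated genes was called and their median was 0.05.

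The sialic acid genes of the pathway to which ST8Sia6 belongs were not called in KO or het. Of 9 sialyltransferase genes tested 5 were positive in KO (median 0.07), of 11 genes that make, activate or remove sialic acid 6 were positive (median 0.00), and of 27 O-glycan genes 16 (median 0.13). The 26 tested genes within 5 Mb of St8sia6 on chromosome 2 held no call, and none had an unadjusted p under 0.05.

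**Figure D4:**
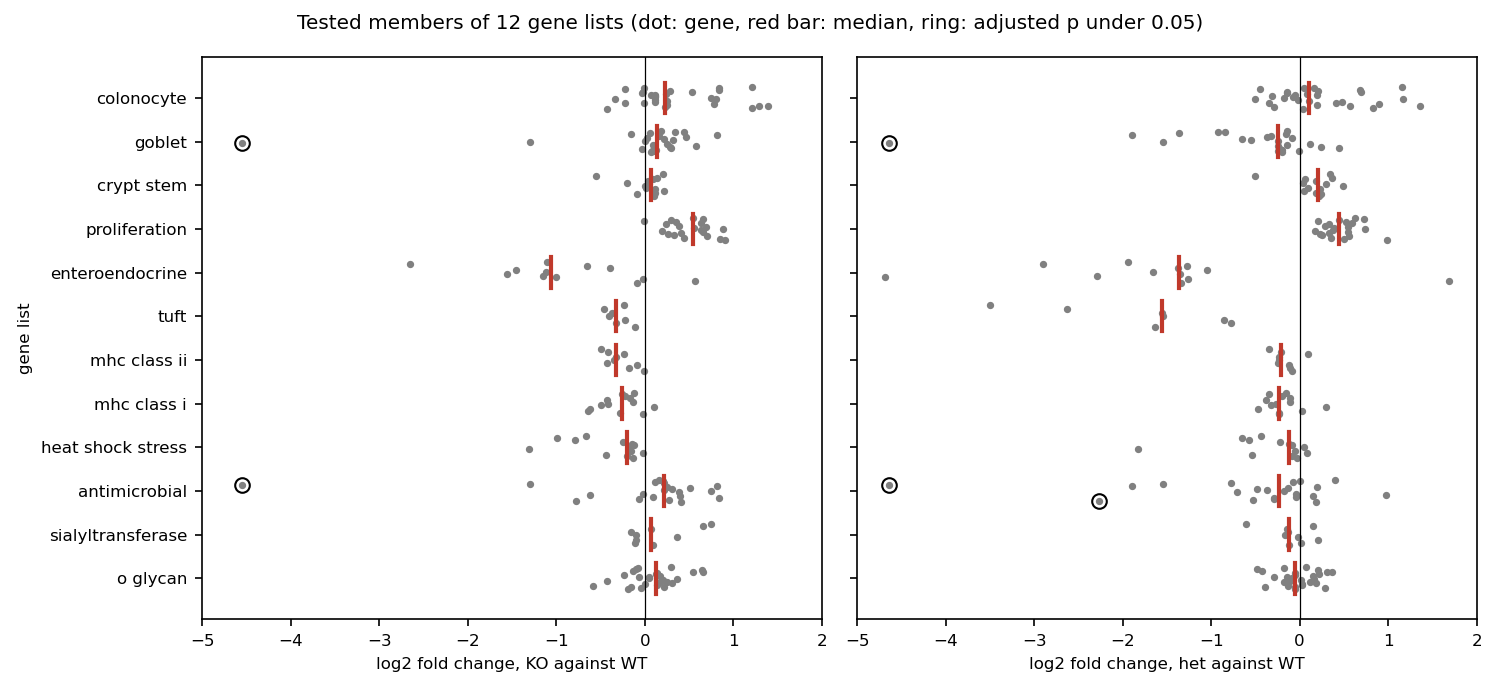
Log2 fold changes of the tested members of 12 gene lists in colon epithelial cells, KO against WT (left) and het against WT (right). Each dot is a gene, red bars are list medians and rings mark an adjusted p under 0.05; Ang4, a member of the goblet and antimicrobial lists, lies near -4.55 and -4.64.

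The same rule applied to the small bowel epithelium gave 707 of 16705 cells (4.23%). Summed by library over the 3 genotypes, they were set against the colon members to find what marks the colon epithelium (edgeR quasi-likelihood test, 12545 genes, 3 against 3 libraries). Of these, 34.8% were called, 2158 higher (17.2%) and 2212 lower (17.6%) in colon. Tissue, library and the separate preparations cannot be told apart, genotypes were mixed in other proportions (586 of the 707 small bowel cells were WT), and libraries of the tissues were not paired. The 24 genes of smallest p named below kept their direction and their call under the 13 alternatives run.

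Wfdc2 stood at 376, 483 and 428 TMM-scaled CPM in the colon libraries and 3.26, 2.15 and 2.16 in the small bowel libraries, a log2 difference of 7.38 ± 0.23 SE (edgeR adjusted p = 1.16e-07). Slc6a14, a transporter of neutral and basic amino acids, stood at 172 ± 29.1 (SD, n = 3) against 0.496 ± 0.224, and Fut2, the fucosyltransferase that makes H antigen on mucosal glycans, at 92.7 ± 5.41 against 5.94 ± 1.08. Sycn, which encodes syncollin of secretory granules, stood at 405 ± 45.5 against 7.51 ± 0.329 and Lrg1, a secreted leucine-rich glycoprotein, at 61.7 ± 6.85 against 0.473 ± 0.296. The colon and small bowel libraries did not overlap in any of these genes.

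For several colon genes the small bowel held almost no transcript. Car1 gave 67687 UMIs in colon and 3 in small bowel, a ratio of CPM of 6016 with a 95% interval of 2059 to 29175 that covers counting error only. Hoxb13 gave 2 small bowel UMIs (ratio 997, 276 to 8237), Cyp2d34, of the cytochrome P450 family, 1 (ratio 912, 164 to 36031) and Tnip3, an inhibitor of NF-kB signalling, 3 (ratio 298, 102 to 1444). Serpinb5, Ildr1 and Far1 completed the 12 higher genes of smallest p, with log2 differences of 4.48, 4.57 and 4.46.

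The lower genes of smallest p included apolipoproteins and a disaccharidase. Apoa1, an apolipoprotein of chylomicrons, stood at 2725 ± 124 CPM in small bowel and 0.204 ± 0.128 in colon, a log2 difference of -13.57 ± 0.33 SE (edgeR adjusted p = 4.54e-08). Apoa4 gave 7405 UMIs in small bowel and 1 in colon. Sis, the brush border sucrase-isomaltase, stood at 399.7, 304 and 396 in small bowel and 0.265, 0.421 and 0.209 in colon (-10.27 ± 0.27 SE, edgeR adjusted p = 5.80e-08), and the transcription factor Gata4 of proximal intestine at 102 ± 18.4 against 0.508 ± 0.129. Apob, the structural protein of chylomicrons, Cps1, of the urea cycle, the bile acid and drug exporter Abcc2, Dab1, Creb3l3, Tm4sf5 and Myrfl differed by -5.15 to -7.75 on the log2 scale, and Fam20a gave 3 UMIs in colon (small bowel to colon ratio 416, 141 to 2029).

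The promoter of Sis is shown because Sis is a textbook target of the intestinal Cdx factors and separated the tissues. It is the 120 bases before the start at chr3:72967864-72967983 (GRCm38.p6, RefSeq, minus strand), with TTTAT on either strand in capitals.
Sis: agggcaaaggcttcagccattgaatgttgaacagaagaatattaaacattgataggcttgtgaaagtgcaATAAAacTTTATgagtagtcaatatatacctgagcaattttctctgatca
It held 2 such matches, against at least 1 in 20.2% of all starts. Cdx2, which encodes the factor itself, did not pass the test between the tissues, with a log2 difference of 0.21 ± 0.20 SE (edgeR adjusted p = 0.454).

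**Figure D5:**
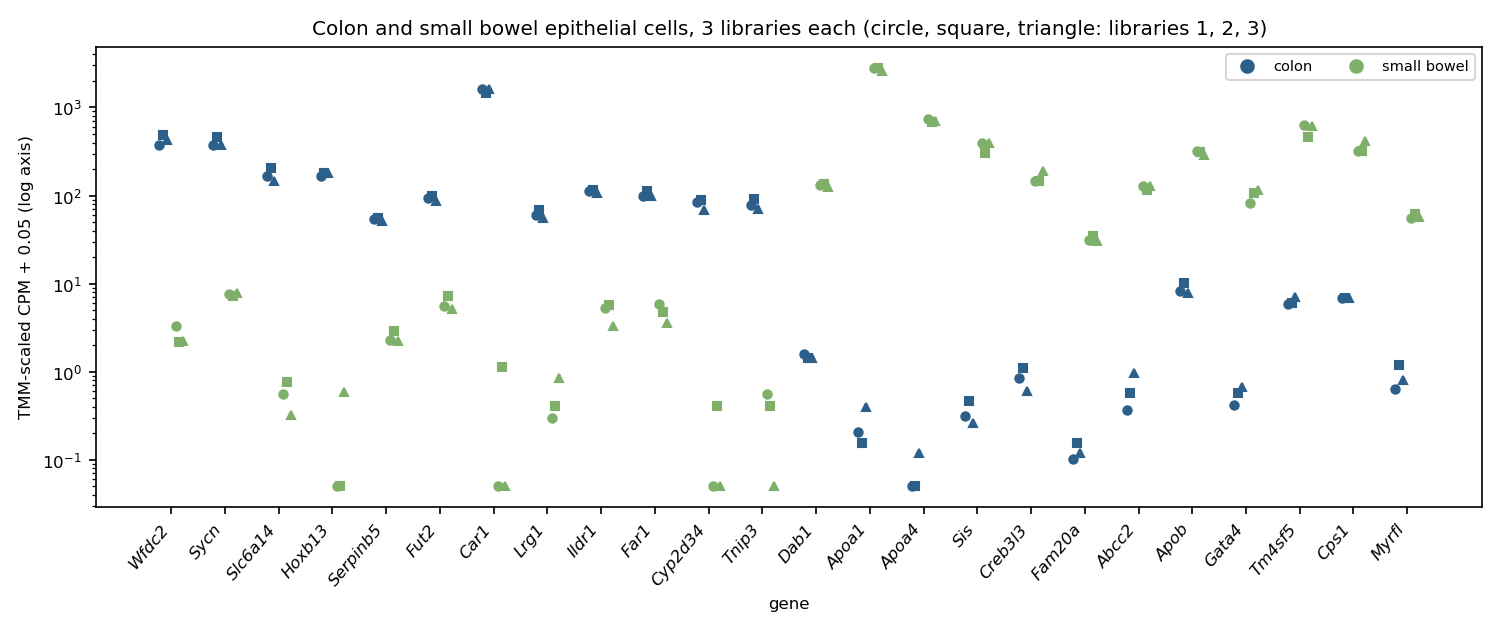
TMM-scaled CPM + 0.05 (log axis) of the 12 higher and 12 lower genes of smallest p in colon against small bowel epithelial cells, 1 point per library. The 3 colon points and the 3 small bowel points of each gene are separated, and Car1, Apoa1 and Apoa4 lie furthest apart.

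Several marker lists followed the tissue. Over all genes tested 17.2% were called higher and 17.6% lower in colon, the shares beside which the list counts here and below stand. Of 20 small bowel enterocyte genes, 18 were lower and 1 higher in colon, with a median log2 difference of -7.49 against 0.00627 over all genes. All 8 tested Paneth cell genes were lower (median -9.63). Of 29 colonocyte genes, 17 were higher and 4 lower (median 0.90). Of 29 ion transport genes 12 were higher and 6 lower, the latter near the share over all genes. All 11 tuft genes tested were lower in colon (median -2.30). Of 24 goblet genes 4 were higher, near the share over all genes, and 9 lower. Muc2 did not pass the test (-0.45 ± 0.38 SE, edgeR adjusted p = 0.398).

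More stem cell genes were lower than higher in the colon members. Of 16 tested, 8 were lower and 1 higher (median -0.34). Olfm4, a stem cell marker of the small bowel crypt, stood at 922 ± 112 CPM in small bowel and 0.170 ± 0.188 in colon, and Lgr5 at 22.4 ± 7.18 and 8.46 ± 0.213 (log2 -1.38 ± 0.22 SE, edgeR adjusted p = 9.91e-04).

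Host defence genes were mostly higher in colon. Of 22 antimicrobial genes, 15 were higher and 4 lower (median 1.40), the latter near the 17.6% called lower over all genes. Of 10 class II genes, 7 were higher and none lower (median 1.25), and of 28 interferon-stimulated genes 18 were higher and 2 lower (median 1.14). Cd74 stood at 3428, 3044 and 3915 CPM in colon and 1288, 1327 and 1372 in small bowel (1.38 ± 0.17 SE, edgeR adjusted p = 2.72e-04). Class II genes are also B cell genes: Cd74 gave a UMI in 94.9% of thinned members, 47.1% of Cd3e cells and 99.5% of Cd79a cells. The B cell gene Cd79b stood at 0.02% to 0.04% of the Cd74 level in members, against 3.9% to 4.76% in Cd79a cells. Members were chosen without Ptprc and Cd79a, and the reference cells for Cd79a, so this ratio cannot decide the source of Cd74 in members. That source was not tested.

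Immune transcripts differed between the tissues too. Of 8 plasma cell genes tested 7 were higher in colon (median 3.79), with Igkc at 89.9, 84.4 and 96.3 CPM against 3.77, 5.38 and 6.75. All 5 T cell genes tested were lower, with Gzma at 2.28, 3.05 and 2.93 against 21.3, 45.2 and 23.2. Their part in the differences of other genes was not tested.

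Sialylation genes separated the tissues, whereas no sialylation gene was called by genotype. Of 9 sialyltransferase genes tested, 6 were higher and 1 lower in colon (median 2.09). St6galnac6, which adds sialic acid in alpha-2,6 linkage, stood at 292 ± 4.03 CPM in colon and 2.07 ± 2.24 in small bowel (log2 7.30 ± 0.39 SE, edgeR adjusted p = 1.39e-06). St6galnac4 and St6gal1 differed by 7.03 and 3.70. St3gal4, which adds sialic acid in alpha-2,3 linkage, was the 1 lower gene, at 114 ± 1.19 in colon and 583 ± 111 in small bowel (-2.35 ± 0.17 SE).

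Of 11 sialic acid metabolism genes, 8 were higher and 1 lower in colon (median 1.09). Gne, the rate-limiting enzyme of sialic acid synthesis, differed by 2.37 ± 0.13 SE, Slc35a1, which carries CMP-sialic acid into the Golgi, by 2.34 ± 0.12 SE, and Cmah, which makes the glycolyl form, by 4.96 ± 0.52 SE on the log2 scale (edgeR adjusted p = 1.31e-06, 1.16e-06 and 8.63e-05). O-glycan genes were split, 10 higher and 5 lower of 27 (median 0.21), the latter near the 17.6% called lower over all genes.

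Signals to immune cells also differed. All 4 butyrophilin-like genes tested, which support intraepithelial T cells, were lower in colon (median -1.50). The small bowel homing chemokine Ccl25 differed by -4.79 ± 0.24 SE and the colonic Ccl28 by 1.25 ± 0.16 SE (edgeR adjusted p = 8.64e-07 and 3.45e-04). Of 27 epithelial cytokine genes, 9 were higher and 10 lower.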

How the data were processed

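Gene expression and hashtag matrices of the colon and the small bowel epithelium were used; the small bowel lamina propria was not analysed here. The authors deposited raw UMI counts per gene and cell, and counts per hashtag, made with Cell Ranger and Seurat on mm10 per the submitters' processing notes (versions not given in the sources used here). The deposited lists of other content hold barcodes and symbols. Every column with values was mapped to a group, and 20% mitochondrial counts was the upper limit per cell. No doublet caller was run, and doublets were removed only where an immune gene was counted. Counts were summed per genotype and library over at least 10 cells and tested with edgeR 4.0.16 (R 4.3.3; TMM factors, filterByExpr, quasi-likelihood, genotype and library as terms, Benjamini-Hochberg over all genes tested). The fit was run on simulated counts with the same spread for every gene and no library effect, which cannot test the calls given here. DESeq2 1.42.0 was an alternative. Colon and small bowel sums were tested without a block. Clusters came from scanpy 1.11.5 (2000 variable genes, 20 components, 15 neighbours, Leiden resolution 0.6) and are a description.

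Sums of 1 library (barcode endings 1 to 3, 4 to 6 or 7 to 9) were taken as 1 run, so library was a block in the edgeR tests of genotype; the tests of shares had none. The labels number runs, but barcode endings are not mapped to those numbers. Within a library, WT cells of 2 mice cannot be separated. The edgeR p-values of genotype rest on the spread left between sums after the genotype and library terms. Those of shares, and of colon against small bowel, rest on the spread between 3 libraries. Genes were named by rule: up to 12 higher and 12 lower called genes of smallest adjusted p that moved the same way in every library. Lists are given by counts called, with examples. The members and lists were chosen with earlier results of these data known. Ratios of CPM between the tissues carry 95% intervals that cover counting error only. Shares of cells are given without intervals, and a count of 0 is read against 3 counts. Of 32285 symbols, 26296 matched the RefSeq gene table used for positions. Depths ran from 848367 to 7968647 UMIs per sum.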

Additional observations from a re-analysis of the deposited data

Results flagged for a closer look

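Of 18 calls between genotypes checked, 3 had the opposite direction in small bowel epithelial cells taken by the same rule, all for KO against het. In colon members KO exceeded het in every library for Zg16, Fer1l6 and Sytl2. In the small bowel KO lay below het within each library, by -19514 CPM on average for Zg16, -250.2 CPM for Fer1l6 and -156 CPM for Sytl2. The difference between the tissues was not tested. The small bowel sums held 17 to 22 KO and 20 to 24 het cells.

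Zg16 stood at 16714, 3242 and 1630 CPM in the 3 KO and 43352, 24962 and 11813 CPM in the 3 het small bowel libraries. The share of cells in the goblet gate moved with it, at 36.4%, 17.6% and 11.8% in KO and 54.2%, 40.0% and 47.6% in het, and its part in these differences was not tested.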

How the results depend on the processing

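The number of genes called between genotypes depends on the processing. For KO against WT it was 14 with DESeq2, 222 with no filter on low counts, 2 within the colonocyte gate and 3 outside the goblet gate. For het against WT it was 16, 193, 2 and 1 in the same order, 63 within the goblet gate, 10 with genotype by hashtag share, 8 with an Epcam minimum of 5, 9 with more immune genes required at 0 and 3 with mitochondrial counts under 10%. For KO against het it was 15, 143, 1 and 2 in that order, 11 within the goblet gate, 3 by hashtag share, 2 and 3 with an Epcam minimum of 2 or 5, and 3 under 10% mitochondrial counts. The goblet gate, outside-goblet and depth alternatives were chosen after the data were seen. Leaving out 1 library gave 2 to 37, 1 to 20 and 0 to 15 calls. The 0 (edgeR, without library 3) stands beside 293 genes at an unadjusted p under 0.05 and DESeq2's 15 over all libraries. The cause of these changes was not tested.

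Without the replicate block the counts were 4, 2 and 3. No paired analysis was possible because, for colon against small bowel, the barcode endings of their matrices are not mapped to the run numbers of the labels. There, 3017 to 4935 genes were called under the alternatives.

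Gene directions that reversed were Slpi (het against WT, 0.44 by hashtag share), Spink1 (het against WT, 0.0914 in the colonocyte gate and 0.19 outside the goblet gate) and Zg16 (KO against het, -0.030 in the colonocyte gate). Share differences, which 3 against 3 libraries could not bring under a p of 0.05 in the permutation test, reversed as follows, in percentage points. By hashtag share the epithelial difference was 1.21 for het minus WT and -0.857 for KO minus het. Unthinned, goblet het minus WT was 0.964, colonocyte KO minus WT -0.658 and colonocyte KO minus het -2.03. At 5000 UMIs crypt het minus WT was -0.651, crypt KO minus het 0.65 and colonocyte KO minus het -3.18. Crypt KO minus WT was 0.115 with a Muc2 limit of 10 and 0.309 with an Lgr5 limit of 2, crypt KO minus het 0.0558 and 0.309, and crypt het minus WT -4.2e-05 with the latter. Colonocyte KO minus het was -0.585 and -0.404 with Muc2 limits of 2 and 10. Leaving out 1 library gave -7.57 to 1.58 for the epithelial het minus WT difference, -0.42 to 0.326, -1.12 to 0.791 and -0.88 to 0.699 for crypt KO minus WT, het minus WT and KO minus het, and -6.11 to 4.71 for colonocyte KO minus het.

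With 46 to 438 cells per sum and 3 libraries, rare types, Lgr5 and single-library signals are beyond the precision of these data.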

Other observations

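Deep crypt secretory genes, which mark the Reg4-expressing cells of the colon crypt base, summed to 3251 to 3786 CPM in KO, 2369 to 4885 in het and 3282 to 4913 in WT libraries, which overlapped. Oxidative phosphorylation genes summed to 18878 to 22375, 18806 to 22354 and 20163 to 22628 CPM, and genes of fatty acid oxidation and ketone synthesis, the fuel pathways of colonocytes, to 2524 to 3112, 2663 to 3315 and 2747 to 3231 CPM. No gene of these lists was called between KO and WT.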
